A study of Mus musculus with 30 samples.

Results

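Transcripts of 10 genes that mark macrophages, the phagocytes that live among muscle fibres, were followed in bulk RNA sequencing of the mouse soleus. They are C1qa, C1qb, C1qc, Adgre1, Cd68, Csf1r, Cd163, Mrc1, Lyz2 and Lyve1, taken as the rows of the count table whose Ensembl identifier carries these symbols, which gave 10 genes of 56980. The 30 mice were C57BL/6J, 3 to 4 months old and of both sexes. HU mKO (8 mice) had both catalytic AMPK subunits, alpha1 and alpha2, deleted in skeletal muscle and spent 4 weeks in hindlimb unloading, and HU Ctrl (7 mice) carried the floxed alleles without Cre and were unloaded for as long. AMB mKO (7 mice) had the same deletion and stayed ambulatory, and AMB Ctrl (8 mice) were ambulatory floxed mice without Cre. The floxed alleles were thus shared by all 4 groups, and the sources used here do not name the promoter that drove Cre. A deletion directed at muscle does not target the macrophages themselves.

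Macrophages of resting muscle sit mostly between the fibres and around vessels, where they clear debris and help repair. They take up material through scavenger receptors, need signals through the CSF1 receptor to survive, and are a main source of C1q, the recognition molecule of the classical complement pathway. In whole-muscle RNA, fewer macrophages and less RNA per macrophage cannot be told apart.

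Library totals ran from 12083415 to 17510056 counts in HU mKO, 13912163 to 18114930 in HU Ctrl, 12958437 to 18518415 in AMB mKO and 15269039 to 20895263 in AMB Ctrl. Prkaa2, the AMPK catalytic subunit alpha2 and one of the deleted genes, lay between 56.0 and 112 CPM (counts of the gene per 1e6 counts of the library, TMM-scaled) in HU mKO against 130 to 346 CPM in HU Ctrl, and between 15.0 and 85.1 CPM in AMB mKO against 170 to 258 CPM in AMB Ctrl. Prkaa1, the subunit alpha1, overlapped between genotypes, at 13.4 to 24.3 CPM in HU mKO against 22.4 to 30.4 CPM in HU Ctrl. AMB mKO replicate 2 stood apart from the other libraries: its 7 adipocyte markers summed to 7815 CPM, where the other AMB mKO libraries had 67.3 to 1267 CPM, and its 10 fibre markers summed to 3134 CPM, the lowest of all libraries.

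The letters just upstream of some markers are shown as a description. The markers varied together between mice, as described further on, and the part of these letters in that was not tested. RefSeq (assembly GRCm38.p6) gave a window of 250 bases before to 50 after the transcription start for 6 of the 10 genes, namely C1qb, C1qc, Cd68, Cd163, Mrc1 and Lyz2, and 4 of these are printed, 5′ to 3′ along the gene's strand. C1qb and C1qc, which encode chains of the same C1q molecule, lie on chromosome 4 at chr4:136886151-136886450 and chr4:136892865-136893164, both on the minus strand. Mrc1, the macrophage mannose receptor, has its window at chr2:14229164-14229463 on the plus strand, and Cd163, the scavenger receptor for haemoglobin bound to haptoglobin, at chr6:124304401-124304700 on the plus strand. Capitals mark GAGGAA or its reverse complement TTCCTC, a core bound by PU.1, the transcription factor that macrophages need to develop.
C1qb: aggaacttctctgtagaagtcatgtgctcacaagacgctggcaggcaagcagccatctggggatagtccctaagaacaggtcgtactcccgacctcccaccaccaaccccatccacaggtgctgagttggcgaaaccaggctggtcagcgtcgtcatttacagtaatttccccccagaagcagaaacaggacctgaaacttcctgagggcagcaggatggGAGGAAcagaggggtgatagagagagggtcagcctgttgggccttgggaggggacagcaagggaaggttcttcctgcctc
C1qc: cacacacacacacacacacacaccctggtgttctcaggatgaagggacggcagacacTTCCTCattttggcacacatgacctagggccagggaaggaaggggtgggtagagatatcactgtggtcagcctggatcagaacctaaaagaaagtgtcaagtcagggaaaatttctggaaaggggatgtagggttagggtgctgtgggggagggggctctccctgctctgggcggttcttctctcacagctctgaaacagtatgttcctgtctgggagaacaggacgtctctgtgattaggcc
Mrc1: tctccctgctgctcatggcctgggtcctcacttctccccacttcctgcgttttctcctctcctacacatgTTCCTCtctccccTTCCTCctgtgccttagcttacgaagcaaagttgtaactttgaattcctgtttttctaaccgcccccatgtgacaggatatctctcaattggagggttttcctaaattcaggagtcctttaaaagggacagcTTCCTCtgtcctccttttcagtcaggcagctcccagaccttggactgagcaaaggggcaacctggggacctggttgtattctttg
Cd163: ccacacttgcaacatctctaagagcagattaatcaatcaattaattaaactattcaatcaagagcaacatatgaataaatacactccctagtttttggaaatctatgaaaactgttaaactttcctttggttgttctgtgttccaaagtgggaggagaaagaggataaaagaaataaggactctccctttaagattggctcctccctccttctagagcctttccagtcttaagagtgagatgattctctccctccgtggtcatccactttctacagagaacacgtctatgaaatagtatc
The match in the C1qb window began at -30 relative to the start site, and the one in C1qc at -193. Mrc1 held 3 matches, at -180, -167 and -35, and Cd163 held none. Counting both strands, 4 of the 6 windows held GAGGAA, against 28.3% of all 27025 promoter windows of this length. TGCTGA, a MAF motif, was in 2 of the 6 (C1qb and Lyz2) against 19.1% of all windows, and TGANTCA, the AP-1 motif, in 1 (Cd68) against 7.93%. TATAAA and CACGTG were in none of the 6, against 14.2% and 7.24% of all windows. Such matches describe letters in these windows and do not show binding.

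All 10 markers were detected in every library, with raw counts between 26 (Cd68) and 2184 (Cd163). Per kilobase of merged exon (GENCODE M21 lengths), Lyz2, which encodes the bacteriolytic enzyme lysozyme, had the highest level, at 44.9 ± 14.3 CPM per kilobase (SD, n = 30 libraries). The C1q chains followed with 15.0 ± 5.47 for C1qb, 13.1 ± 4.82 for C1qa and 8.71 ± 3.21 for C1qc, in the same unit. Lower levels per kilobase were those of Csf1r (7.85 ± 2.46), Mrc1 (6.18 ± 2.20), Cd163 (5.88 ± 2.86), Lyve1 (5.03 ± 1.82), Cd68 (3.28 ± 1.13) and Adgre1 (2.25 ± 0.997). Neighbours in this order differed by less than the larger of their SDs, except Lyz2 and C1qb. Lyz2 has a close copy, Lyz1, and the sources used here do not say how reads matching both were counted, which leaves the Lyz2 level uncertain.

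The markers of other blood cells were nearly absent. Each of 9 lymphocyte genes had at most 93 counts over all 30 libraries together, and each of 6 neutrophil genes at most 89, so that none reached the expression needed for testing. Lyz2 is also expressed by neutrophils. Ly6g, a defining neutrophil marker, had 2 counts in all.

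**Figure D1:**
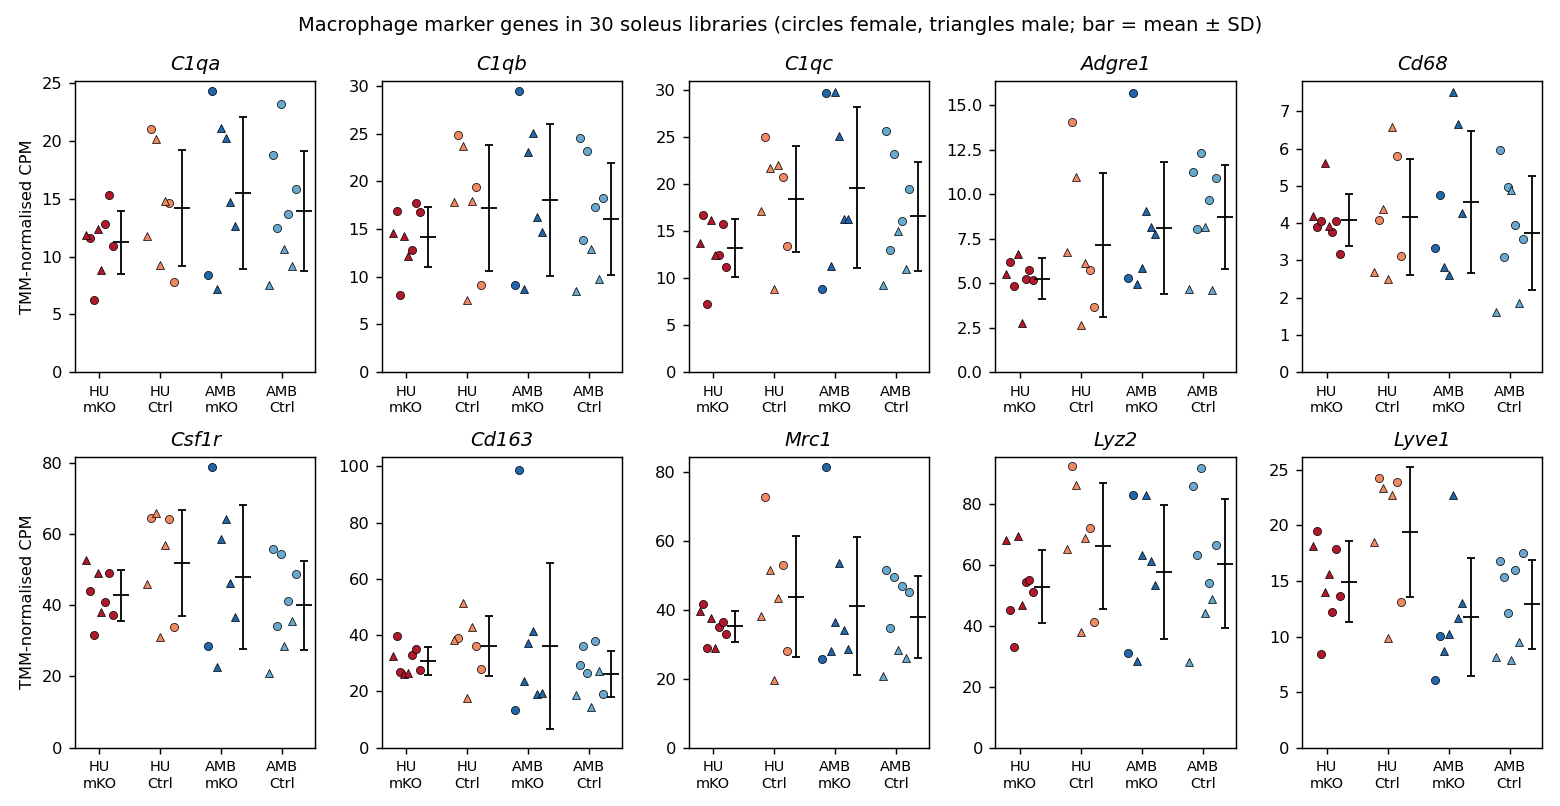
TMM-normalised CPM of each marker gene (vertical axis, from 0) in HU mKO, HU Ctrl, AMB mKO and AMB Ctrl, with 1 point per mouse, circles for females and triangles for males, and the mean ± SD at the right of each group. In all 10 panels the groups overlap; AMB mKO replicate 2 is the high Cd163 point at 98.8 CPM.

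The C1q chains bind immune complexes and dying cells and start the classical pathway. C1qa had a lowest, median and highest level of 6.25, 11.7 and 15.3 CPM in HU mKO, 7.83, 14.7 and 21 CPM in HU Ctrl, 7.16, 14.7 and 24.3 CPM in AMB mKO, and 7.54, 13.1 and 23.2 CPM in AMB Ctrl. C1qb had 8.07, 14.4 and 17.7 CPM in HU mKO, 7.56, 17.9 and 24.9 CPM in HU Ctrl, 8.73, 16.2 and 29.5 CPM in AMB mKO, and 8.48, 15.6 and 24.6 CPM in AMB Ctrl. For both chains HU mKO held the lowest median and the lowest maximum, and all 4 groups overlapped.

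Csf1r, the receptor whose signal keeps macrophages alive, had 31.7, 42.4 and 52.6 CPM in HU mKO, 31, 56.9 and 65.8 CPM in HU Ctrl, 22.6, 46.1 and 78.8 CPM in AMB mKO, and 21, 38.3 and 55.9 CPM in AMB Ctrl. Lyz2 had 33.1, 52.6 and 69.3 CPM in HU mKO, 37.9, 68.7 and 92.3 CPM in HU Ctrl, 28.4, 61.1 and 83.1 CPM in AMB mKO, and 28.2, 58.8 and 91.9 CPM in AMB Ctrl. Cd68, with the lowest counts of the 10, had 3.16, 4.00 and 5.61 CPM in HU mKO, 2.50, 4.07 and 6.58 CPM in HU Ctrl, 2.61, 4.27 and 7.52 CPM in AMB mKO, and 1.62, 3.76 and 5.96 CPM in AMB Ctrl. HU Ctrl had the highest median for Csf1r and Lyz2, and the Cd68 medians lay close together. Across the 30 libraries the highest value was 3.27 times the lowest for Lyz2, the narrowest span of the 10, and 7.30 times for Cd163, the widest.

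Lyve1 is a hyaluronan receptor carried by perivascular macrophages and also by lymphatic endothelium. It had a call for averaged unloading that depended on single libraries, as described below. Its lowest, median and highest levels were 8.39, 14.8 and 19.5 CPM in HU mKO, 9.86, 22.8 and 24.3 CPM in HU Ctrl, 6.07, 10.2 and 22.7 CPM in AMB mKO, and 7.90, 13.7 and 17.5 CPM in AMB Ctrl. Of the 7 HU Ctrl mice, 5 lay above every AMB Ctrl mouse and 2 lay within their range. Averaged over genotype, Lyve1 rose by 0.46 ± 0.17 on the log2 scale in unloaded soleus (fold 1.38, standard error after ±, 95% interval 0.11 to 0.81, adjusted p = 0.0417 over 16932 genes by edgeR's quasi-likelihood test, 15 unloaded and 15 ambulatory mice). It was the only marker of the 10 called in that comparison, where 28.5% of all genes tested were called at an adjusted p below 0.05, 14.2% as higher. At an unadjusted p below 0.05 there were 2, Lyve1 and Adgre1, against 39.6% of all genes. DESeq2 also called 1 of the 10.

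The Lyve1 call depended on single libraries: it was lost in 21 of the 30 fits that left out 1 library, with adjusted p from 0.00601 to 0.0851 and a log2 change from 0.38 to 0.59. Without AMB mKO replicate 2 the adjusted p was 0.0512. With no filter on low counts it was 0.0648, and without the 3 libraries highest in adipocyte transcripts 0.0538. The titles carry a letter, a, b or c, which the labels leave unexplained, and each group holds all 3 letters. A group had 2 or 3 mice of a letter. Differences within letters, here and below, were not adjusted for sex, which was unbalanced within letters. Within letters a, b and c, the Lyve1 difference of mean log2 CPM was -0.04, 0.56 and 0.62 for HU mKO against AMB mKO, and 0.38, 0.45 and 0.77 for HU Ctrl against AMB Ctrl. These differences come from the same mice that gave the call, so their signs are not separate evidence for it. Also listed were 6 other lymphatic endothelial genes, Prox1, Flt4, Ccl21a, Pdpn, Mmrn1 and Reln. For averaged unloading edgeR called 0 of these 6, where 28.5% of all genes were called, and DESeq2 called 0. At an unadjusted p below 0.05, which 39.6% of all genes reached, there were 0 of the 6. Their median log2 change was -0.10. Their summed level was 61 to 152 CPM in HU mKO, 56.1 to 140 CPM in HU Ctrl, 52.9 to 128 CPM in AMB mKO and 71.6 to 198 CPM in AMB Ctrl. Prox1 and Reln weigh most in that sum, with means of 43.5 and 29.3 CPM, against 5.00 (Ccl21a) to 12.1 CPM (Flt4) for the others. How well this list follows lymphatic content was not tested.

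Adgre1, the adhesion receptor used to stain mouse macrophages, had the opposite sign. It ranged from 2.78 to 6.64 CPM in HU mKO (median 5.35), 2.63 to 14.1 CPM in HU Ctrl (median 6.11), 4.92 to 15.7 CPM in AMB mKO (median 7.74) and 4.61 to 12.3 CPM in AMB Ctrl (median 8.93). The HU mKO values were the least spread, and their range ended below the AMB mKO median. Averaged over genotype its log2 change was -0.46 ± 0.19, with an adjusted p of 0.0783, so that it did not pass. The limma fit with library weights gave it an adjusted p of 0.00746, and the fit with the title letter 0.0408.

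By edgeR, the other 8 markers had log2 changes between -0.22 (C1qa) and 0.13 (Cd163) for averaged unloading, with standard errors of 0.16 to 0.20. Their 95% intervals ran from -0.59 at the lowest (C1qa) to 0.55 at the highest (Cd163). Changes within each gene's own interval were not excluded. The limma fit with library weights gave Cd163 a change of 0.47 ± 0.16, with an adjusted p of 0.0268. Genes of fibro-adipogenic progenitors and fibroblasts, which share the space between fibres with macrophages, summed to 672 to 1724 CPM in HU mKO, 695 to 3707 CPM in HU Ctrl, 1088 to 17302 CPM in AMB mKO and 1118 to 7492 CPM in AMB Ctrl, and their part in these values was not tested. The median over the 10 markers was -0.01, equal to the -0.01 of all genes tested.

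The comparison of unloaded with ambulatory controls gave no call among the markers. In HU Ctrl against AMB Ctrl, 0 of the 10 were called, where 11.1% of all genes tested were (5.37% higher, 5.74% lower), and DESeq2 also called 0. At an unadjusted p below 0.05, which 26.4% of all genes reached, there was 1, Lyve1, at 0.61 ± 0.25 (adjusted p = 0.104). Log2 changes were positive for 9 of the 10 and negative for Adgre1 (-0.16 ± 0.28), with a median of 0.20 against 0.03 for all genes. Cd163 had 17.7, 38.1 and 51.4 CPM as its lowest, median and highest values in HU Ctrl, against 14.5, 27.0 and 37.8 CPM in AMB Ctrl, a log2 change of 0.58 ± 0.29 (adjusted p = 0.200). Csf1r, the receptor for the growth factors Csf1 and Il34, had 31, 56.9 and 65.8 CPM in HU Ctrl against 21, 38.3 and 55.9 CPM in AMB Ctrl, a log2 change of 0.43 ± 0.23 (adjusted p = 0.233). The values of both groups overlapped for all 10 markers, whereas 3.56% of all genes tested showed no overlap. Within letter c all 10 markers were higher in HU Ctrl (median 0.60), within letter b 6 were (median 0.17) and within letter a 3 were (median -0.30). These within-letter values rest on 2 or 3 mice per group and are not adjusted for sex.

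In mKO mice the values pointed down instead. HU mKO against AMB mKO had 0 of the 10 called, where 10.1% of all genes tested were, DESeq2 called 0, and 3 had an unadjusted p below 0.05, which 27.3% of all genes had. These were Adgre1 at -0.75 ± 0.28 (adjusted p = 0.0825), C1qc at -0.63 ± 0.26 (adjusted p = 0.114) and C1qa at -0.56 ± 0.26 (adjusted p = 0.167). C1qc ranged from 7.27 to 16.7 CPM in HU mKO, with a median of 13.1, and from 8.88 to 29.9 CPM in AMB mKO, with a median of 16.3. The AMB mKO mice fell far apart for this gene: 3 lay at 25.1 CPM or above and all 8 HU mKO mice lay below them. Log2 changes of 9 of the 10 were negative (median -0.33, against -0.04 for all genes), the exception being Lyve1 at 0.31 ± 0.25. All 10 overlapped between the groups, where 1.51% of all genes tested did not.

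AMB mKO replicate 2 had the highest value of all 30 for 6 of the markers, C1qa (24.3 CPM), C1qb (29.5), Adgre1 (15.7), Csf1r (78.8), Cd163 (98.8) and Mrc1 (81.4). Its Lyve1 level lay just below the AMB mKO median of 10.2 CPM. Without it the median of the 10 was -0.14 with 8 negative, and Cd163 was at 0.23, against -0.31 ± 0.29 with it. With AMB mKO replicate 1 left out, 2 markers were called, Adgre1 at an adjusted p of 0.0413 and C1qc at 0.0316. Within letters a and c the median was -0.54 and -0.37, and within letter b it was 0.20.

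**Figure D2:**
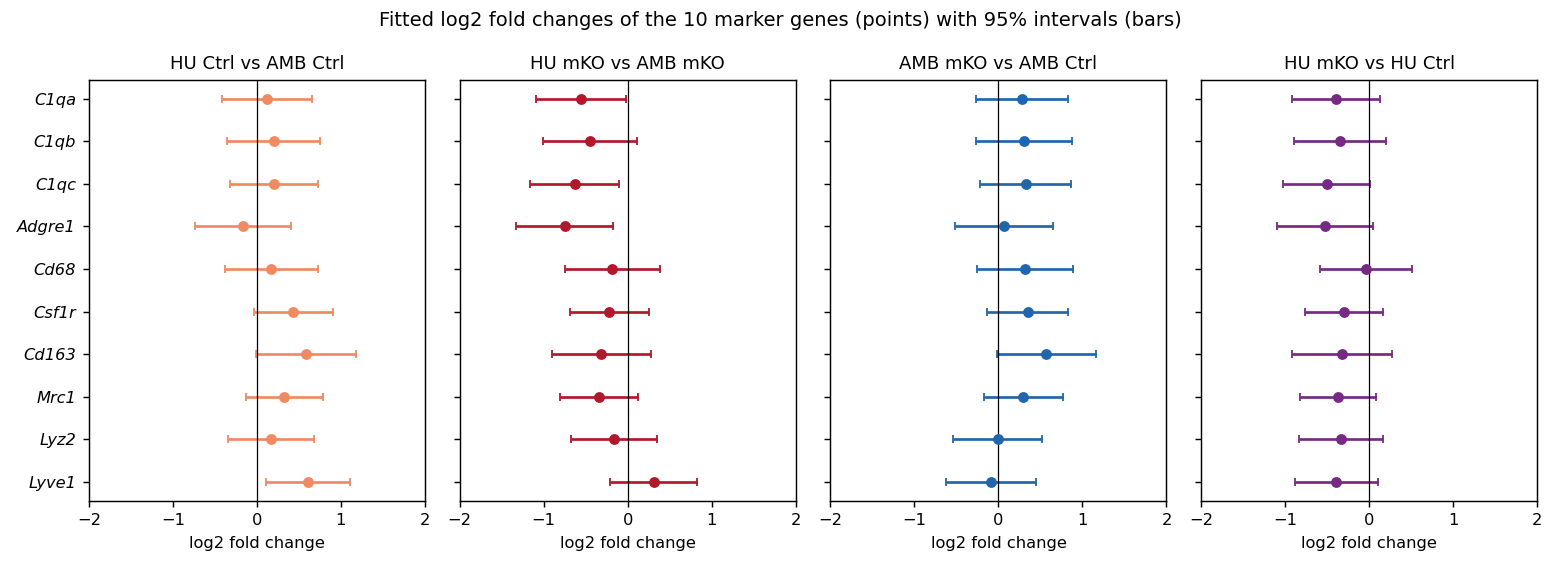
Fitted log2 fold changes (horizontal axis, points) of the 10 marker genes (vertical axis) with 95% confidence intervals (bars) in 4 comparisons named above the panels, with the first-named group over the second. Most intervals span 0; Lyve1 in HU Ctrl against AMB Ctrl and Adgre1, C1qc and C1qa in HU mKO against AMB mKO do not, and none of the 40 points passes an adjusted p of 0.05.

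Deleting AMPK in muscle was not followed by a call for any marker at either loading. AMB mKO against AMB Ctrl had 0 of the 10 called, by edgeR and by DESeq2, and 0 at an unadjusted p below 0.05 (7.62% of all genes), in a comparison with 0.0177% of all genes called. The largest log2 change was that of Cd163, with 13.5, 23.7 and 98.8 CPM as its lowest, median and highest values in AMB mKO against 14.5, 27.0 and 37.8 CPM in AMB Ctrl. Its fitted change was 0.57 ± 0.29 (adjusted p = 0.663), although the median was lower in AMB mKO. Without AMB mKO replicate 2 the Cd163 change was 0.02 ± 0.26, and the median change of the 10 markers was 0.10, against 0.30 with it. Changes of 8 of the 10 were positive, and Lyve1 (-0.09 ± 0.26) and Lyz2 (-0.01 ± 0.26) were negative. Within letters a and c 8 markers were higher in AMB mKO (medians 0.43 and 0.23), and within letter b 1 was (median -0.17).

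HU mKO against HU Ctrl had 0 of the 10 called, by edgeR and by DESeq2, and 0 at an unadjusted p below 0.05 (1.78% of all genes), again with 0.0177% of all genes called. All 10 log2 changes were negative, with a median of -0.36, and ran from -0.53 ± 0.28 (Adgre1) to -0.04 ± 0.27 (Cd68). Mrc1 had 29.0, 35.8 and 41.7 CPM as its lowest, median and highest values in HU mKO against 19.7, 43.6 and 72.9 CPM in HU Ctrl (-0.37 ± 0.22). Lyve1 had 8.39 to 19.5 CPM in HU mKO against 9.86 to 24.3 CPM in HU Ctrl (-0.39 ± 0.24). HU mKO mice were closely grouped for Mrc1, and for both genes they lay inside the HU Ctrl range, apart from the lowest Lyve1 value. The 10 changes were negative in 9 markers within letter c (median -0.69), in 7 within letter b (median -0.09) and in 3 within letter a (median 0.07). Groups overlapped for all 10 in both genotype comparisons, as they did for all but 0.0295% of genes in unloaded and 0.0354% in ambulatory mice. Averaged over loading, 0 of the 10 were called (0 by DESeq2, 0 at an unadjusted p below 0.05, which 5.97% of all genes reached) against 0.0177% of all genes, with 3 changes positive, 7 negative and a median of -0.05. With AMB mKO replicate 2 left out these were 1 positive, 9 negative and a median of -0.14.

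Whether unloading acted differently by genotype was tested with the interaction term, the change in mKO minus the change in controls. No marker and no gene was called (0%), and DESeq2 called 0 markers. All 10 estimates were negative with a median of -0.65, from -0.90 ± 0.42 (Cd163) to -0.30 ± 0.36 (Lyve1). An unadjusted p below 0.05 was reached by 3 of the 10, C1qc (-0.83 ± 0.37, 95% interval -1.60 to -0.07), Cd163 (95% interval -1.75 to -0.05) and Mrc1 (-0.67 ± 0.32), against 2.42% of all genes. Every adjusted p was 0.999 in edgeR's model. The median was -0.40 and the Cd163 estimate -0.27 ± 0.36 without AMB mKO replicate 2. The 5 comparisons above share groups of mice, so their signs are not independent of each other. The 10 markers also varied together between mice, as described below. Counts of signs or of markers within 1 comparison, here and for sex, are therefore not counts of independent observations.

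By sex, all 10 fitted changes were higher in females, with 0 called (0.213% of all genes were, and DESeq2 called 0) and a median of 0.24. An unadjusted p below 0.05 was reached by 2, Mrc1 and Adgre1, against 12.6% of all genes. Mrc1 had 25.9, 41.7 and 81.4 CPM as its lowest, median and highest values in 15 females against 19.7, 34.1 and 53.7 CPM in 15 males, a log2 change of 0.45 ± 0.16 (adjusted p = 0.256 by edgeR's model). Adgre1 had 3.67, 6.2 and 15.7 CPM in females against 2.63, 6.11 and 10.9 CPM in males, 0.44 ± 0.20 (adjusted p = 0.365). Female and male values overlapped for both genes. The highest female value of both is AMB mKO replicate 2, without which the Mrc1 change was 0.32 ± 0.17, the Adgre1 change 0.32 ± 0.21 and the median of the 10 markers 0.12.

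The markers varied together from mouse to mouse within groups. Pearson's r of residual log2 CPM, with group and sex removed, had a median of 0.74 over the 45 pairs of markers (30 mice). By permutation (100000 draws, two-sided, Benjamini-Hochberg over 45 pairs), 44 pairs passed an adjusted p of 0.05 with Pearson's r and 44 with Spearman's rho. The tightest pairs were Csf1r with Lyz2 (r = 0.95, rho = 0.92) and C1qb with C1qc (r = 0.95, rho = 0.93), each at the smallest p the draws can give, 1e-05 (adjusted p = 1.9e-05). Without the 2 mice farthest from the median of the first gene of each pair, these became 0.93 and 0.93. Cd68, a glycoprotein of late endosomes and lysosomes, and Cd163 were the pair that did not pass (r = 0.18, p = 0.330, rho = 0.19, p = 0.321, and r = 0.11 without the 2 farthest mice). All genes of a library share its scaling factor, and the pairs share the same 30 mice. Pairs of other genes were not tested, so the share of them that would pass is not known.

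Within this common movement the markers had an inner and an outer set. C1qb, Csf1r, C1qc, Lyz2, Mrc1 and C1qa had median r with the other 9 markers of 0.91, 0.90, 0.88, 0.88, 0.87 and 0.85. Adgre1 (0.75), Lyve1 (0.71), Cd163 (0.60) and Cd68 (0.57) followed less closely. Removing the title letter as well, keeping sex, using median-of-ratios scaling or leaving out AMB mKO replicate 2 left the same 44 pairs past the threshold and the same pair short of it.

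**Figure D3:**
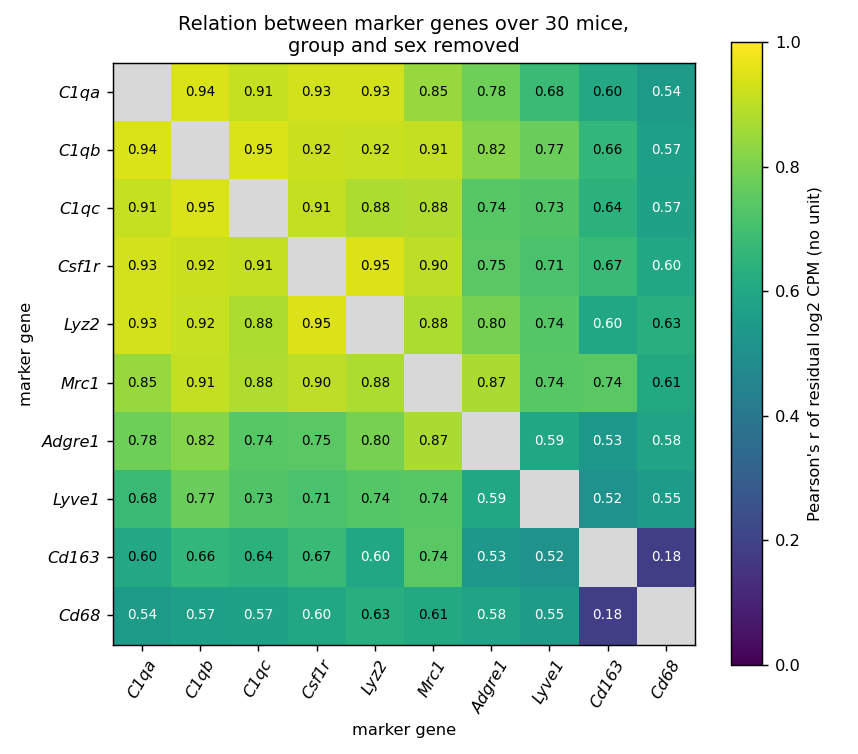
Pearson's r between marker genes (rows and columns) over 30 mice, computed on residual log2 CPM after removing group and sex, with colour and printed value from 0 to 1. The C1q chains, Csf1r, Lyz2 and Mrc1 form the block with the highest values, and Cd68 with Cd163 is the lowest at 0.18.

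Ratios to C1qa within a library differed in how widely they varied. For the C1q chains, C1qb over C1qa ran from 0.816 to 1.54 over the 30 libraries (coefficient of variation 12.6%) and C1qc over C1qa from 0.95 to 1.71 (15.4%). The coefficient of variation was 15.9% for Lyz2 over C1qa and 18.4% for Csf1r over C1qa. Lyve1 over C1qa varied more, from 0.413 to 1.78 (31.5%). By group the Lyve1 ratio was 1.36 ± 0.288 in HU mKO, 1.40 ± 0.261 in HU Ctrl, 0.825 ± 0.310 in AMB mKO and 0.972 ± 0.239 in AMB Ctrl (SD). The mean ratio was higher in unloaded than in ambulatory mice of both genotypes, with overlapping ranges of 0.957 to 1.78 in HU mKO, 1.06 to 1.67 in HU Ctrl, 0.413 to 1.21 in AMB mKO and 0.521 to 1.23 in AMB Ctrl. Cd163 over C1qa had the widest spread of the 9 ratios computed, from 1.15 to 4.28 (34.1%). Adgre1 over C1qa was 0.484 ± 0.138 in HU mKO, 0.478 ± 0.129 in HU Ctrl, 0.551 ± 0.143 in AMB mKO and 0.633 ± 0.0892 in AMB Ctrl.

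Outside the 10, the genes (of 14382 ranked, named and averaging 1 CPM or more) most like the mean of the 10 markers over the 30 mice were ranked by Pearson's r, as a description. F13a1, the coagulation factor XIII A chain made by macrophages, ranked highest at 0.94. Camk1d (a calcium-dependent kinase) and Pcolce2 (an enhancer of procollagen processing) followed at 0.91 each, and C3ar1, the receptor for the complement fragment C3a, at 0.90. The next were Fbln5, Timp2, H2-Aa and Ltbp1 at 0.89 each, then Cd34 and H2-Ab1 at 0.88. Fbln5, Ltbp1 and Cd34 are also transcripts of fibroblasts and their progenitors. Leaving out AMB mKO replicate 2 moved these 10 values to between 0.86 and 0.95.

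Lists of cell-type genes gave the context for that ranking. The median r with the marker mean was 0.80 for 15 other macrophage and phagocyte genes, 0.78 for 7 MHC class II genes and 0.68 for 10 genes of fibro-adipogenic progenitors and fibroblasts. It was 0.65 for 13 resident macrophage genes, 0.65 for 3 monocyte-derived and inflammatory genes and 0.56 for 13 other complement genes. For 6 lymphatic endothelial genes it was 0.48, from -0.40 (Prox1) to 0.65 (Pdpn), and for 7 lipid-associated and repair genes 0.24. It was 0.09 for 10 blood endothelial genes, -0.09 for 7 adipocyte genes and -0.34 for 10 fibre genes, against -0.04 over all genes ranked. For 10 genes of the CSF1 axis and macrophage transcription factors the median was 0.41. They ran from -0.20 (Cebpb) to 0.73 (Spi1, which encodes PU.1). Csf1, a growth factor that signals through Csf1r, had 0.71, and Il34, the other such factor, 0.29. What part of the shared movement follows connective tissue or fibre content in the dissected muscle was not tested.

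The signals that macrophages depend on were measured too. By edgeR, 0 of 10 genes of the CSF1 axis and macrophage transcription factors were called for averaged unloading (median -0.12, against -0.01 for all genes), where 28.5% of all genes were, and DESeq2 called 1. Leaving out AMB mKO replicate 2 gave a median of 0.01. At an unadjusted p below 0.05, which 39.6% of all genes reached, there were 2, Csf2ra, a chain of the GM-CSF receptor, at -0.55, and Runx1, a transcription factor of blood cells, at 0.54. Csf1 averaged 19.9 ± 4.94 CPM in HU mKO, 22.7 ± 8.33 CPM in HU Ctrl, 27.7 ± 10.8 CPM in AMB mKO and 24.1 ± 6.03 CPM in AMB Ctrl, a log2 change of -0.28 ± 0.16. Il34, the other ligand of Csf1r, had a change of -0.01 ± 0.18, and Spi1 one of -0.11 ± 0.19.

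Beside the markers, the MHC class II genes, with which macrophages and dendritic cells present antigen, fell with unloading. All 7 listed genes fell for averaged unloading (14.3% of all genes fell), at H2-Eb1 -1.07 ± 0.23 (adjusted p = 8.2e-04), H2-Ab1 -1.04 ± 0.22, Cd74 -0.96 ± 0.22, H2-Aa -0.91 ± 0.21, Ciita -0.90 ± 0.27, H2-DMb1 -0.69 ± 0.22 and H2-DMa -0.55 ± 0.18. H2-Aa, a class II alpha chain, had 10.5, 13.7 and 19.1 CPM as its lowest, median and highest values in HU mKO, 5.46, 14.4 and 31.1 CPM in HU Ctrl, 14.1, 25.2 and 86.2 CPM in AMB mKO, and 12.9, 29.6 and 41.9 CPM in AMB Ctrl. Most unloaded mice lay below the ambulatory medians. By group, 5 of the 7 fell in HU mKO against AMB mKO (median -1.28, with 4.75% of all genes falling) and 0 of 7 in HU Ctrl against AMB Ctrl (median -0.55, DESeq2 also 0, 2 at an unadjusted p below 0.05, 5.74% of all genes falling), a difference between genotypes that the interaction term did not call. Without AMB mKO replicate 2 the averaged count was 5 of 7 and the mKO count 3 of 7. The list was written with earlier results of these data known. Its 7 genes were measured in the same mice, so these counts are not counts of independent observations. On the list of 5 dendritic cell genes, the 2 tested also fell (14.3% of all genes fell), Zbtb46 by 0.64 ± 0.10 and Cd209a by 0.84 ± 0.31 on the log2 scale. Zbtb46 had an r of 0.12 with the marker mean, against a median of 0.78 for the MHC class II genes and 0.09 for 10 blood endothelial genes. It had 5611 counts over all 30 libraries and Cd209a 465, while Flt3, Clec9a and Xcr1, not tested, had 182, 109 and 25. Without AMB mKO replicate 2, and without the 3 libraries highest in adipocyte transcripts, 1 of the 2 was called. Zbtb46 kept its call in all 30 fits that left out 1 library. How well Zbtb46 follows dendritic cells, and the part of dendritic cells in the MHC class II result, were not tested.

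Genes of resident, perivascular macrophages were mixed. Of 14 listed, 2 rose for averaged unloading, a share near the 14.2% of all genes that rose, and 4 rose without AMB mKO replicate 2. The 2 were Maf, a transcription factor of resident macrophages that other cells also use, by 1.08 ± 0.13 (adjusted p = 1.2e-06), and Vsig4, a complement receptor of tissue macrophages, by 1.46 ± 0.32 (adjusted p = 0.00108). Maf had 67.3 to 176 CPM in HU mKO and 60.9 to 111 CPM in HU Ctrl, against 42.2 to 90.3 CPM in AMB mKO and 32.3 to 49.5 CPM in AMB Ctrl, so that the control groups did not overlap (3.56% of all genes did not). Between mice Maf did not follow the markers, at an r of -0.13 with their mean (-0.31 without AMB mKO replicate 2). Vsig4 was low, with 262 counts over all 30 libraries. Its medians were 0.710 CPM in HU mKO, 1.01 CPM in HU Ctrl, 0.267 CPM in AMB mKO and 0.302 CPM in AMB Ctrl. In HU Ctrl against AMB Ctrl F13a1 also rose, by 0.74 ± 0.24 (adjusted p = 0.0457), a call lost in 19 of the 30 fits without 1 library. In HU mKO against AMB mKO Cbr2, a carbonyl reductase, fell by 0.83 ± 0.27 (adjusted p = 0.0499), a call lost in 21 of those 30 fits.

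Among 18 other macrophage and phagocyte genes tested of 20 listed, Cx3cr1, the fractalkine receptor, was the only one called for averaged unloading, where 28.5% of all genes were. It fell by 1.36 ± 0.43 on the log2 scale (adjusted p = 0.0181), with medians of 0.287 CPM in HU mKO, 0.604 CPM in HU Ctrl, 0.95 CPM in AMB mKO and 1.40 CPM in AMB Ctrl. At these levels a library holds few counts of it, and its values overlapped between groups. The median log2 change of the list was -0.22, and -0.10 without AMB mKO replicate 2. Of 9 lipid-associated and repair genes tested, 3 fell, where 14.3% of all genes did: Fabp5 (-0.69 ± 0.17), Cd63 (-0.36 ± 0.10) and Itgax (-0.96 ± 0.27). The median of that list was 0.02 without AMB mKO replicate 2, against -0.36 with it. The inflammatory list had 6 genes tested of 13, and 1, S100a8, rose by 1.15 ± 0.37 (adjusted p = 0.0212), where 14.2% of all genes rose. S100a8 is also abundant in neutrophils, and it had 255 counts over all 30 libraries.

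**Figure D4:**
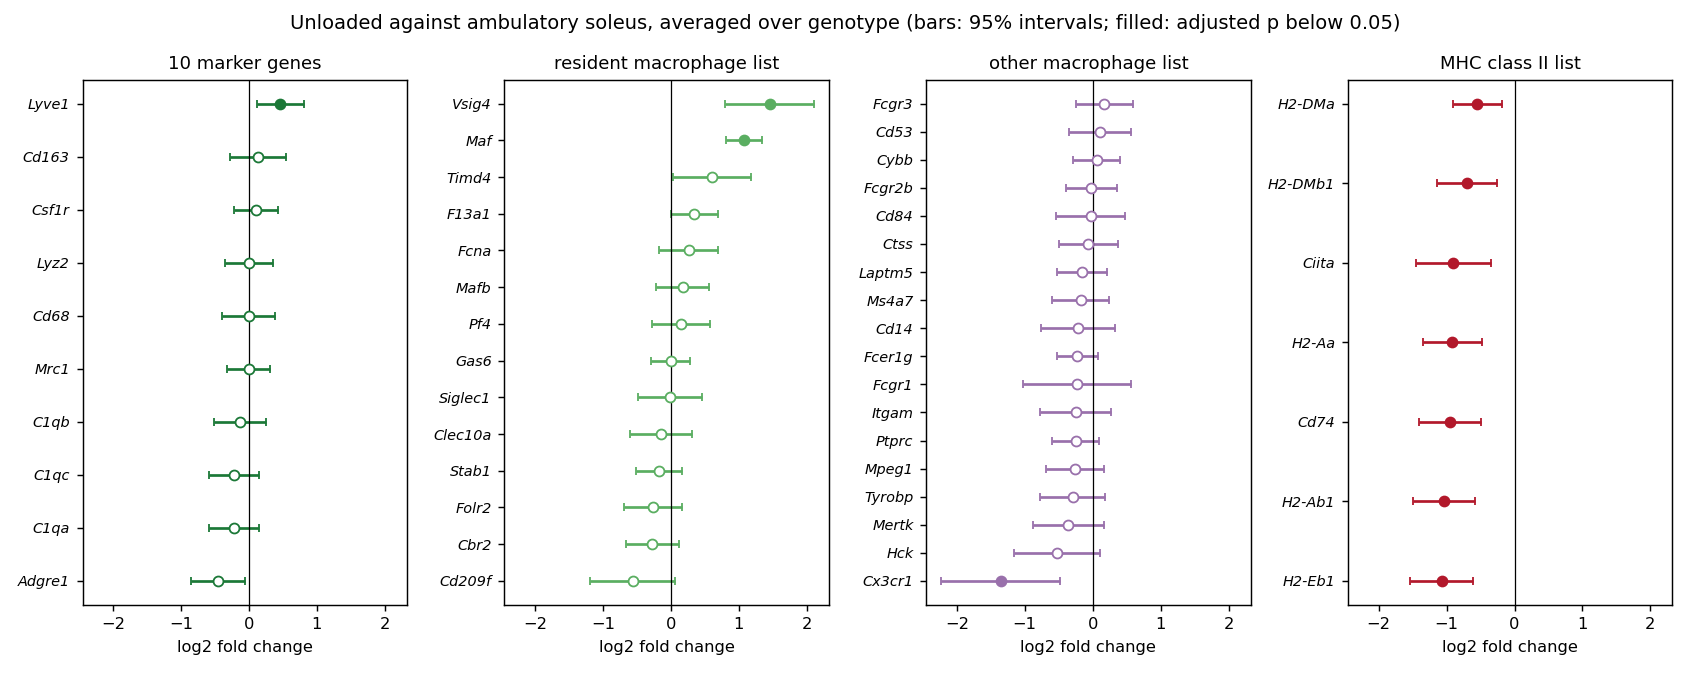
Log2 fold changes for unloaded against ambulatory soleus averaged over genotype (horizontal axis, points) with 95% intervals (bars) for the 10 marker genes, the resident macrophage list, the other macrophage list and the MHC class II list; filled points passed an adjusted p of 0.05. Lyve1 passes among the 10 markers, Maf and Vsig4 rise, Cx3cr1 falls, and all 7 MHC class II genes fall.

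**Figure D5:**
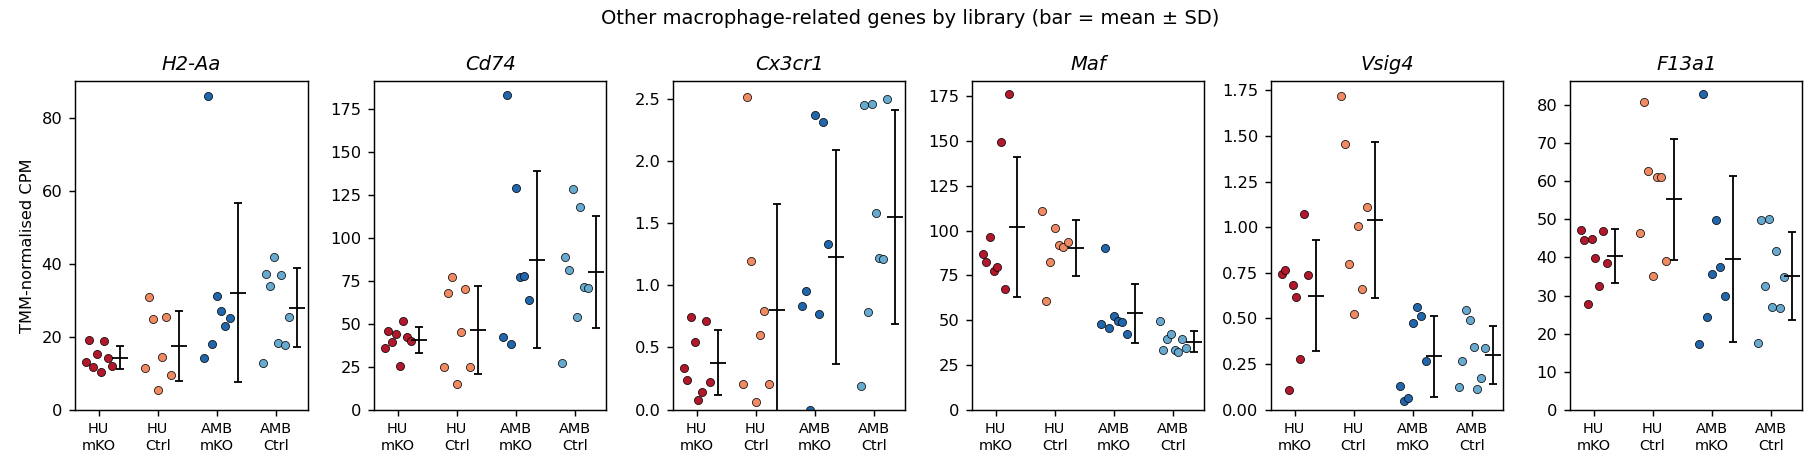
TMM-normalised CPM (vertical axis, from 0) of H2-Aa, Cd74, Cx3cr1, Maf, Vsig4 and F13a1 in each mouse, with the mean ± SD beside each group. Maf separates HU Ctrl (60.9 to 111 CPM) from AMB Ctrl (32.3 to 49.5 CPM), and the lower bar of Cx3cr1 in HU Ctrl ends at the axis because its SD exceeds its mean.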

How the data were processed

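Soleus RNA of 30 mice was made into directional total RNA libraries and read on a NovaSeq, per the labels. The authors deposited raw read counts by Ensembl gene for each mouse; cutadapt 1.16, STAR 2.7.9a, featureCounts 1.6.3, DESeq2 1.34.0 and the builds GRCm39 and mm39 are named per the submitters' processing notes. The sources used here do not give the annotation release or the strand setting. Of the protocol texts in the labels, which also describe people and myotubes, only the library and sequencing statement was used.

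Counts were scaled by TMM in edgeR 4.0.16 (R 4.3.3), filtered with filterByExpr (16932 of 56980 genes, all 10 markers) and fitted with a quasi-likelihood model of 4 groups and sex over 30 libraries, with Benjamini-Hochberg adjustment over all genes tested. Calls, and the verbs rose and fell, rest on an adjusted p below 0.05. Values after ± are SD beside CPM and standard errors beside log2 changes. CPM in correlations were log2 with a prior count of 2. Named genes were all 10 markers and, of each other list, called genes, up to 4 with the smallest p, and those needed to say what did not pass. Alternatives were no filter, a mean of at least 1 CPM, median-of-ratios factors, DESeq2 1.42.0, limma 3.58.1 voom with library weights, sex left out, the title letter added, only the groups compared, and libraries left out. Simulated 2-fold and 4-fold changes of 200 genes each for AMB mKO against AMB Ctrl (16630 and 16629 genes) were called for 66.5% and 93.5% of them. The markers and gene lists were chosen with earlier results of these data known. Labels do not say which mice share a litter or cage, so p-values measure the spread between these samples. A result on 1 listed gene is not reported here.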

Additional observations from a re-analysis of the deposited data

Results flagged for a closer look

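A gap test for a value far from its group (chance flags about 1 in 20 groups) was run on 64 combinations of gene and group, and 7 stood out. AMB mKO replicate 2 was high in 4 of them: Adgre1 at 15.7 CPM (next 9.07), Cd163 at 98.8 CPM (next 41.4), H2-Aa at 86.2 CPM (next 31.4) and Maf at 90.3 CPM (next 52.3). It is also the library with the highest adipocyte sum, 7815 CPM, and the lowest fibre sum, 3134 CPM, and the part of these in the 4 values was not tested. AMB mKO replicate 5 was high in Lyve1, at 22.7 CPM (next 13.0). In HU mKO, replicate 5 was low in Adgre1 at 2.78 CPM (next 4.81), and replicate 4 was high in Cd68 at 5.61 CPM (next 4.20).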

How the results depend on the processing

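No paired analysis was possible because the labels give the groups no shared replicate numbers. The number of the 10 markers called stayed 0 for AMB mKO against AMB Ctrl, HU mKO against HU Ctrl, mKO averaged, the interaction and sex under every alternative run, single libraries left out included. For averaged unloading (1 called) it was 0 with no filter, 0 without AMB mKO replicate 2, 0 without the 3 libraries highest in adipocyte transcripts, 2 with the title letter, 3 with limma voom, and 0 to 1 leaving out 1 library. For HU Ctrl against AMB Ctrl (0) it was 1 in a fit of only those groups, Lyve1 at 0.76 (adjusted p = 0.0140). For HU mKO against AMB mKO (0) it was 1 with the title letter and 0 to 2 leaving out 1 library. MHC class II calls were 3 with voom in HU Ctrl against AMB Ctrl (0; 0 to 1 leaving out 1 library), and in HU mKO against AMB mKO (5) 2 without the 3 libraries and 3 to 7 leaving out 1; for averaged unloading (7) they were 5 to 7. The cause was not tested.

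Signs turned for values that were not called. In AMB mKO against AMB Ctrl voom gave C1qa -0.094, C1qb -0.088, C1qc -0.083, Adgre1 -0.23, Cd163 -0.11 and Mrc1 -0.073; sex left out gave Adgre1 -0.10; the title letter gave Lyz2 0.064 and the fit of only those groups 0.16; without the 3 libraries Adgre1 was -0.17 and Cd163 -0.0031. In HU Ctrl against AMB Ctrl voom gave C1qa -0.082 and C1qb -0.030. In HU mKO against AMB mKO voom gave Csf1r 0.064, Cd163 0.43, Lyz2 0.044 and F13a1 0.34; sex left out gave F13a1 0.022; without the 3 libraries Cd163 was 0.19, Lyz2 0.046 and F13a1 0.29. For the interaction voom gave Adgre1 0.026, and for averaged unloading Cbr2 0.032. Leaving out 1 library, ranges that crossed 0 were Adgre1 -0.16 to 0.21, Lyz2 -0.15 to 0.15 and Lyve1 -0.31 to 0.088 in AMB mKO against AMB Ctrl, Cd68 -0.14 to 0.12 in HU mKO against HU Ctrl, C1qa -0.0025 to 0.25 in HU Ctrl against AMB Ctrl, Cd163 -0.52 to 0.23 and F13a1 -0.24 to 0.26 in HU mKO against AMB mKO, and Cd68 -0.029 to 0.14 for sex.

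Counts of all genes called moved most for HU Ctrl against AMB Ctrl (1882; 1225 with no filter, 3409 with voom, 3098 in the fit of only those groups) and HU mKO against AMB mKO (1702; 987, 2781 and 608 with the same alternatives, 2591 with the title letter). In AMB mKO against AMB Ctrl (3) DESeq2 called 9 and the fit of only those groups 1; mKO averaged (3) had 6 with DESeq2 and 5 without the 3 libraries; sex (36) had 126 with DESeq2 and 55 with the title letter. Fits without the 3 libraries test fewer mice.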

Other observations

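Complement genes outside the C1q chains were described apart from the markers. Of 13 tested of 14 listed, Cr1l, a membrane regulator of complement in rodents, rose for averaged unloading by 0.20 ± 0.07 (adjusted p = 0.0302), where 14.2% of all genes rose, and the median of the list was -0.07. Without AMB mKO replicate 2, 3 of these rose and the median was 0.15. Blood endothelial genes fell in 4 of 10 for averaged unloading, where 14.3% of all genes fell, among them Kdr, the main receptor for vascular endothelial growth factor, by 0.96 ± 0.12 on the log2 scale. Kdr had 22.8 to 43.7 CPM in HU mKO and 24.9 to 47.0 CPM in HU Ctrl, against 37.3 to 80.3 CPM in AMB mKO and 44.8 to 92.3 CPM in AMB Ctrl. Among fibroblast genes, 3 of 10 fell (again against 14.3%), Col1a1 by 3.33 ± 0.64, Col3a1 by 2.12 ± 0.38 and Ly6a by 0.42 ± 0.13.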
